A study of Homo sapiens with 3 samples.

Results

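GDF15, the activin subunit genes INHBA, INHBB and INHBE, the activin antagonist gene FST, the ligand genes TGFB1, TGFB2 and TGFB3 and the receptor genes TGFBR1 and TGFBR2 were examined, which are 10 of the 60664 Ensembl gene identifiers counted. They were chosen by symbol as a set of related genes, with their counts in these 3 libraries already known, so what follows describes them and tests nothing. The cells were Caco-2, a line of human colon carcinoma cells that serves as a stand-in for enterocytes, labelled wild type in every group. Cells of the DSS+polydatin group were given 30 µM polydatin, a glucoside of resveratrol, for 2 h. They were then given polydatin together with 3% DSS for 8 h. Cells of the DSS group were given 3% dextran sulfate sodium (DSS), a sulfated polysaccharide used to provoke colitis in rodents, for 8 h. Control cells were kept untreated in the incubator. By its title, the series asked how polydatin acts on DSS-induced injury and ferroptosis.

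Each group has 1 RNA library. Every ratio therefore compares libraries and has no replicate check, and all intervals are 95% intervals that cover counting error only. Without molecular identifiers a molecule can be read more than once, which these intervals do not allow for. Library totals lay between 16667622 and 18825914 counts. Levels are in CPM, the usual library-size unit, with totals corrected by trimmed-mean-of-M (TMM) factors. The 14792 genes that reached 1 CPM in any library were taken as measured. Of 8 intestinal epithelial markers 7 were measured, and these 8 summed to 6444 CPM in DSS+polydatin, 8112 in DSS and 6770 in control. KRT20 was the marker below 1 CPM. Of 6 immune markers 2 were measured, and 2, PTPRC among them, had 0 counts in each library. The 6 summed to between 3.36 and 7.99 CPM. The 4 endothelial markers, 2 of them measured, summed to between 13.5 and 24.9 CPM. The 6 fibroblast markers, 4 of them measured, summed to between 45.0 and 52.0 CPM.

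The ligands of this superfamily are secreted dimers that bind pairs of type II and type I serine/threonine kinase receptors. TGF-beta and activin receptors phosphorylate SMAD2 and SMAD3, which enter the nucleus with SMAD4. TGF-beta ligands are secreted in a latent form and restrain the growth of normal intestinal epithelium. GDF15 is a distant member, a stress-induced hormone that acts through GFRAL and RET on neurons of the hindbrain, and its gene is known to respond to the stress factors ATF4 and CHOP.

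GDF15 was higher in DSS than in control, and higher again in DSS+polydatin. Its counts were 1938 in DSS+polydatin, 1047 in DSS and 163 in control, or 111, 56.5 and 8.98 CPM. The order of the libraries was thus DSS+polydatin, DSS, control, with counting intervals that do not overlap. GDF15 was 6.30-fold higher in DSS than in control (5.33 to 7.47), 1.97-fold higher in DSS+polydatin than in DSS (1.82 to 2.12) and 12.4-fold higher in DSS+polydatin than in control (10.5 to 14.6). GFRAL, which encodes its receptor, had 0 counts in all 3 libraries, where 3 counts would be 0.172 CPM in DSS+polydatin, 0.162 in DSS and 0.165 in control. The coreceptor gene RET had 1 count in DSS+polydatin and 0 in both DSS and control.

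**Figure D1:**
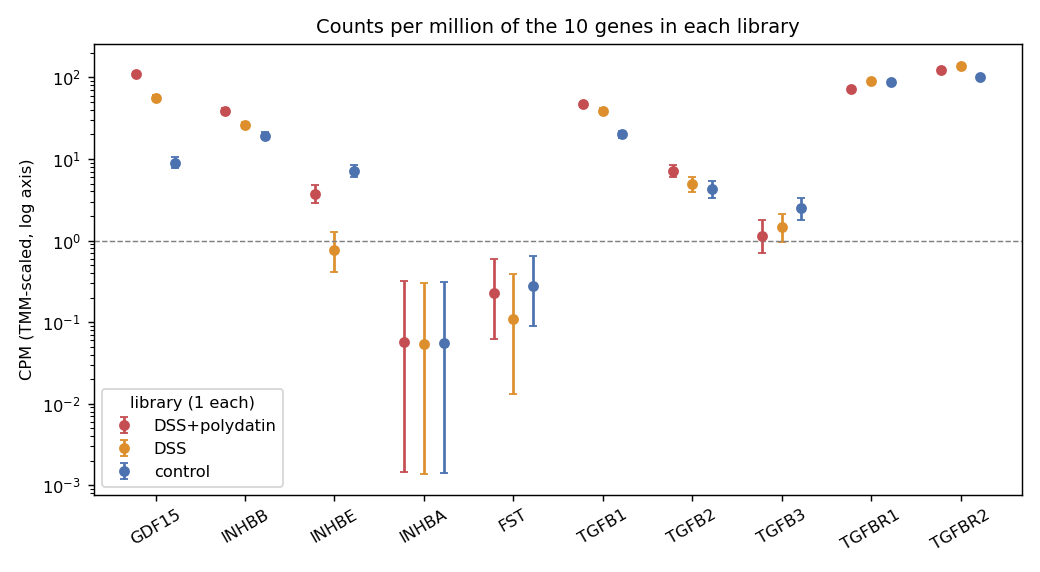
Level of each of the 10 genes in CPM (log axis) in the DSS+polydatin, DSS and control libraries, 1 library each; points are the values, bars are exact 95% Poisson counting intervals and the dashed line is 1 CPM. GDF15 stands at 111, 56.5 and 8.98 CPM, INHBE is lowest in DSS at 0.756 CPM, and INHBA and FST lie under the line in every library.

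GDF15 lies on chromosome 19, 18374731 to 18389176 (GRCh38, plus strand). An intron of it holds the hairpin of the microRNA gene MIR3189 (chr19:18386562-18386634, plus strand), which shares no exon base with GDF15. MIR3189, looked up after the values of GDF15 were seen, had 31 counts in DSS+polydatin, 26 in DSS and 1 in control. Its ratio was 25.5 for DSS against control (4.19 to 1045) and 1.27 for DSS+polydatin against DSS, with an interval that includes 1 (0.728 to 2.22). Reads on the hairpin can come from unspliced GDF15 RNA as well as from the microRNA precursor, and they do not measure the mature microRNAs. These are shown because they come from the same transcript as the member with the widest range, with the seed (bases 2 to 8) in capitals, from RefSeq on GRCh38.p14.
hsa-miR-3189-5p: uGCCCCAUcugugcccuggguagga
hsa-miR-3189-3p: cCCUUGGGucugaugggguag

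The genes with a pattern nearest to that of GDF15 were found by the Euclidean distance over both log2 ratios, DSS over control and DSS+polydatin over DSS, among 11419 genes of at least 5 CPM in at least 1 library. With 3 libraries, likeness rests on those 2 ratios alone. DUSP5, which encodes a phosphatase of ERK, was nearest at a distance of 0.11, with 102 CPM in DSS+polydatin, 48.0 in DSS and 7.60 in control. CDKN2B, which encodes the CDK4/6 inhibitor p15 and is a known TGF-beta target, followed at 0.18. The unnamed gene ENSG00000253666, the small heat shock protein gene HSPB8 and the MAP kinase phosphatase gene DUSP8 lay at 0.24, 0.26 and 0.28.

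INHBE, which encodes the beta subunit of activin E and is known mainly from liver, was lower in DSS than in control. It had 65 counts in DSS+polydatin, 14 in DSS and 129 in control, or 3.73, 0.756 and 7.10 CPM. The DSS library was the lowest, and DSS+polydatin lay between it and control. INHBE was at 0.106 times control in DSS (0.0566 to 0.185), 4.93-fold higher in DSS+polydatin than in DSS (2.74 to 9.52) and at 0.525 times control in DSS+polydatin (0.383 to 0.712). Among genes of at least 5 CPM the nearest to it was CHAC1, at a distance of 1.38. CHAC1 encodes a glutathione-degrading enzyme and is a known ATF4 and CHOP target. This distance is uncertain, since INHBE had 14 counts in DSS. The intervals of CHAC1 overlapped those of INHBE in both ratios. They were 0.180 to 0.339 for DSS against control and 2.32 to 4.45 for DSS+polydatin against DSS. The mitochondrial folate gene ALDH1L2 followed at 1.52, then the cohesin gene SMC1B and the ER peroxidase gene GPX8 (both 1.87) and the complement gene C5 (2.05).

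INHBB, which encodes the beta subunit of activin B, was the most abundant activin subunit gene in all 3 libraries. It had 678 counts in DSS+polydatin, 484 in DSS and 351 in control, or 38.9, 26.1 and 19.3 CPM. Its level was highest in DSS+polydatin and lowest in control. The ratios were 1.35 for DSS against control (1.18 to 1.56), 1.49 for DSS+polydatin against DSS (1.32 to 1.68) and 2.01 for DSS+polydatin against control (1.77 to 2.29). INHBA, the subunit of activin A, had 1 count in each library and no ratio is given. FST, follistatin, which binds and neutralizes activins, had 4 counts in DSS+polydatin, 2 in DSS and 5 in control. At this depth no difference in FST was detectable, with a DSS against control ratio of 0.392 (0.0373 to 2.39). Both genes were under 1 CPM and were left out of the counts of members, which cover 8 of the 10 genes.

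Set per kb of exon, to allow levels of different genes to be compared, INHBB made up 90.7% of the summed level of the 3 activin subunit genes in DSS+polydatin, 96.9% in DSS and 71.9% in control. INHBE made up 9.24%, 2.98% and 28.1% in the same libraries. The summed level itself was 13.4 CPM per kb in DSS+polydatin, 8.41 in DSS and 8.40 in control, so DSS and control had near equal sums with different makeup.

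TGFB1 carried most of the TGF-beta ligand level. It had 815 counts in DSS+polydatin, 725 in DSS and 365 in control, or 46.7, 39.1 and 20.1 CPM. Both libraries given DSS were above control and lay nearer to each other than to it. TGFB1 was 1.95-fold higher in DSS than in control (1.71 to 2.21), at 1.19 times DSS in DSS+polydatin (1.08 to 1.32) and 2.33-fold higher in DSS+polydatin than in control (2.05 to 2.64). It lies on chromosome 19, 41301587 to 41353911, on the minus strand, and 6.64% of its exon bases are shared with HNRNPUL1 on the opposite strand. The strand setting of the counting is not given in the sources used here, so reads there cannot be told apart; HNRNPUL1 had 4842 counts in DSS+polydatin, 6152 in DSS and 6978 in control, the opposite order to TGFB1.

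TGFB2 had 125 counts in DSS+polydatin, 91 in DSS and 77 in control, or 7.17, 4.91 and 4.24 CPM. The DSS against control ratio of 1.16 had an interval that includes 1 (0.846 to 1.59), and the ratio was 1.46 for DSS+polydatin against DSS (1.11 to 1.93) and 1.69 for DSS+polydatin against control (1.26 to 2.28). The noncoding gene TGFB2-OT1, which overlaps 26.6% of its exon bases on the same strand, had 0 counts in each library. TGFB3 had the opposite order, with 20 counts in DSS+polydatin, 27 in DSS and 45 in control, or 1.15, 1.46 and 2.48 CPM. It was at 0.588 times control in DSS (0.351 to 0.968) and at 0.463 times control in DSS+polydatin (0.259 to 0.80), and the DSS+polydatin against DSS ratio of 0.787 had an interval that includes 1 (0.418 to 1.46). Per kb of exon, the 3 ligands summed to 16.1 CPM per kb in DSS+polydatin, 13.3 in DSS and 7.54 in control, and the share of TGFB1 was 89.9%, 90.6% and 82.4%.

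The receptor genes differed less. TGFBR2, the type II receptor that binds the ligand, had 2153 counts in DSS+polydatin, 2568 in DSS and 1852 in control, or 123, 139 and 102 CPM. It was highest in DSS, at 1.36 times control (1.28 to 1.44), with DSS+polydatin at 0.891 times DSS (0.841 to 0.944). TGFBR1, the type I kinase, had 1253 counts in DSS+polydatin, 1656 in DSS and 1611 in control, or 71.9, 89.4 and 88.7 CPM. The DSS against control ratio of TGFBR1 was 1.01 (0.940 to 1.08) and that of DSS+polydatin against DSS was 0.804 (0.746 to 0.866). No receptor ratio reached 1.5-fold either way. Together the receptors summed to 36.7 CPM per kb in DSS+polydatin, 42.5 in DSS and 34.6 in control, and TGFBR2 was the larger part in each, at 71.4%, 69.3% and 62.6%.

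**Figure D2:**
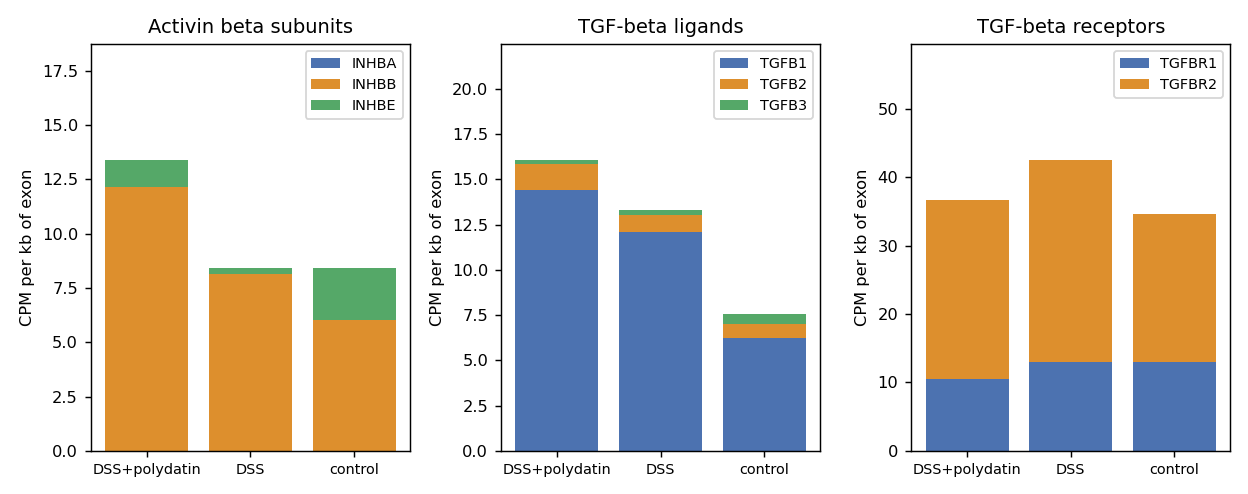
Level per kb of exon (CPM per kb) of the activin subunit, TGF-beta ligand and TGF-beta receptor genes, stacked by gene, in the DSS+polydatin, DSS and control libraries. INHBB, TGFB1 and TGFBR2 form the largest part of their stacks in each library; the vertical scale differs between panels.

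The order of the 10 genes per kb of exon differed between libraries at the top. The intervals here cover counting error and not error in the exon length used, so small gaps between genes are less sure than the intervals show. In DSS+polydatin GDF15 led at 53.3 CPM per kb, above TGFBR2 at 26.2, TGFB1 at 14.4, INHBB at 12.1 and TGFBR1 at 10.5, with no overlap between neighbouring intervals. In DSS TGFBR2 (29.5 CPM per kb) and GDF15 (27.1) had overlapping intervals, as had TGFBR1 (13.1) and TGFB1 (12.1), and INHBB followed at 8.15. In control TGFBR2 led at 21.7, then TGFBR1 at 13.0, TGFB1 and INHBB at 6.21 and 6.03 with overlapping intervals, and GDF15 at 4.30. Among 14705 measured genes with a known length, GDF15 stood above 95.7% in DSS+polydatin, 88.5% in DSS and 46.6% in control. TGFB3, FST and INHBA stayed below 1 CPM per kb in every library.

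Read as calls, at least 1.5-fold with the interval excluding 1, DSS against control had 2 of the 8 measured members higher, GDF15 and TGFB1, and 2 lower, INHBE and TGFB3. Of all 14792 measured genes, 9.45% were called higher and 5.81% lower in that comparison. In DSS+polydatin against DSS 2 were higher, GDF15 and INHBE, and none lower, beside 5.39% of all genes higher and 2.60% lower. INHBB and TGFB2 were just short of 1.5-fold there. Scaled by total counts alone both were called, at log2 ratios of 0.66 and 0.63, so that 4 members were higher, and TGFB2 was also called after correction for GC content and length, at 0.60. In DSS+polydatin against control 4 were higher, GDF15, INHBB, TGFB1 and TGFB2, and 2 lower, INHBE and TGFB3, beside 16.0% and 12.4% of all genes. The DSS library enters both of the first comparisons and the control library both of those against control, so they are not independent, and since the members were chosen with these values known nothing is read from their counts. Total-count scaling also changed the split of all calls, from 797 higher and 384 lower to 1132 and 234 for DSS+polydatin against DSS, and from 2367 and 1829 to 2957 and 1238 for DSS+polydatin against control.

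**Figure D3:**
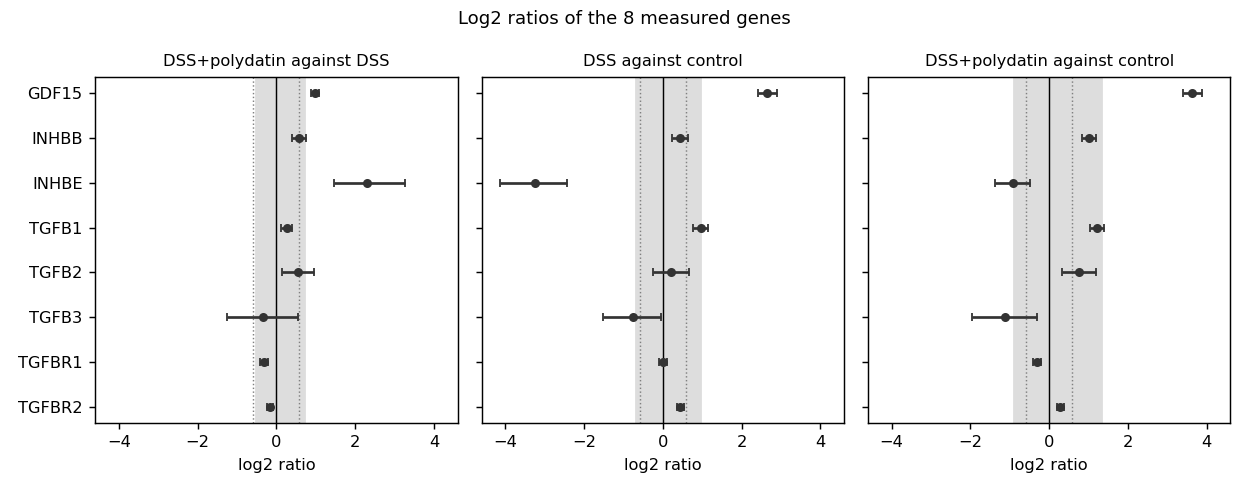
Log2 ratios of the 8 measured genes for DSS+polydatin against DSS, DSS against control and DSS+polydatin against control; bars are 95% counting intervals, dotted lines mark 1.5-fold and the grey band holds the middle 90% of all 14792 measured genes. GDF15 lies right of 0 in all 3 panels, INHBE lies right of it in the first and left in the others, and TGFBR1 and TGFBR2 stay inside the dotted lines.

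The promoters of the 3 ligand genes with the largest counts among the 10 members are shown, so that letters near their starts can be compared. They are the 250 bases before the RefSeq start on GRCh38.p14, and 9 of the 10 members matched an entry. Capitals mark GC boxes (GGGCGG on either strand).
GDF15 promoter, chr19:18385908-18386157, plus strand: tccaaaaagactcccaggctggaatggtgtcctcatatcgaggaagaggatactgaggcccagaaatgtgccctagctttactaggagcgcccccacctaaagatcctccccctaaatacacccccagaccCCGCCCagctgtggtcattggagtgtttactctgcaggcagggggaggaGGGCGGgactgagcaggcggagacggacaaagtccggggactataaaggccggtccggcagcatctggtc
TGFB1 promoter, chr19:41353923-41354172, minus strand: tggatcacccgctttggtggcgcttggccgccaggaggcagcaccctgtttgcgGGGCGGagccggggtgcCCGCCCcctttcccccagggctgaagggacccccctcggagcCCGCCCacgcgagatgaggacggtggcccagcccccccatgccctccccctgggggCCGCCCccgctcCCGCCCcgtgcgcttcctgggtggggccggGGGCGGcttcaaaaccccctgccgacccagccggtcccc
INHBB promoter, chr2:120345886-120346135, plus strand: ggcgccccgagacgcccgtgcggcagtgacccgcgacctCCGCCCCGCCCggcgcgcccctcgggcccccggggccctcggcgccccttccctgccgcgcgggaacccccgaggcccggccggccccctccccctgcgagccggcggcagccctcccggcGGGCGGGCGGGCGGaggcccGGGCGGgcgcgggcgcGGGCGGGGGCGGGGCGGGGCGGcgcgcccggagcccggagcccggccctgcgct

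GC boxes matched at 2 places in GDF15, 6 in TGFB1 and 10 in INHBB, some of the last overlapping each other. A GC box is present in 42.6% of 35116 promoter windows of this length. The other motifs searched on both strands were AP-1 (TGANTCA, 6.57% of windows), the NRF2 core (TGACNNNGC, 10.9%), the C/EBP-ATF element (TGATGNAA, 3.14%), the CRE (TGACGTCA, 1.65%), the SMAD palindrome (GTCTAGAC, 0.182%) and CAGACA (13.6%). None of these was in the windows of GDF15, TGFB1 or INHBB, which says only that the letters are not in these 250 bases.

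Of the other genes of the pathway, the receptors and coreceptors had 6 of 11 genes measured. In DSS against control 1 was higher and none lower, with a median log2 ratio of 0.15. Over all measured genes 9.45% were higher and 5.81% lower there, with a median of -0.0057. None was called either way in DSS+polydatin against DSS, with a median of -0.19. Over all measured genes 5.39% were higher and 2.60% lower there, with a median of -0.012. TGFBR3, the coreceptor betaglycan, was the one higher, with 115 CPM in DSS+polydatin, 131 in DSS and 79.4 in control, 1.65-fold higher in DSS than in control (1.54 to 1.76). The activin type I receptor gene ACVR1B was at 178 CPM in DSS+polydatin, 219 in DSS and 262 in control, and the type II genes ACVR2A and ACVR2B were at 23.8, 23.2 and 22.7 CPM and at 22.5, 25.6 and 28.9 CPM in the same libraries.

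Genes that hold TGF-beta latent or release it were higher in 4 of 9 measured cases in DSS against control and lower in none (9.45% and 5.81% of all genes), with a median log2 ratio of 0.68. After correction for a trend on GC content and length 2 were higher and the median was 0.36. Between DSS+polydatin and DSS 1 was higher in DSS+polydatin and none lower (5.39% and 2.60% of all genes), with a median of 0.37. ITGB8, whose product pairs with ITGAV as an integrin that activates latent TGF-beta, had 1017 counts in DSS+polydatin, 777 in DSS and 167 in control, or 58.3, 41.9 and 9.20 CPM. It was 4.56-fold higher in DSS than in control (3.85 to 5.42) and at 1.39 times DSS in DSS+polydatin (1.27 to 1.53). ITGB6, of the other activating integrin, was lower in abundance but had the same order, with 65 counts in DSS+polydatin, 37 in DSS and 14 in control. FURIN, which encodes the protease that cleaves the ligand precursors, was 1.60-fold higher in DSS than in control (1.47 to 1.74). The latent binding protein gene LTBP4 was 1.67-fold higher (1.43 to 1.95). The ratios given here for ITGB8, FURIN and LTBP4 are those before the correction for GC content and length.

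Among ligand antagonists 3 of 9 genes were measured. FSTL3, a follistatin-like protein that binds activins, had 1950 counts in DSS+polydatin, 1491 in DSS and 348 in control, or 112, 80.5 and 19.2 CPM. It was 4.20-fold higher in DSS than in control (3.73 to 4.73) and at 1.39 times DSS in DSS+polydatin (1.30 to 1.49). FST and the related FSTL1 were under 1 CPM in every library. BAMBI, a pseudoreceptor that blocks TGF-beta signalling, was at 29.8 CPM in DSS+polydatin, 21.6 in DSS and 19.8 in control. IGSF1 was at 1.54 times DSS in DSS+polydatin (1.05 to 2.26), a call that was lost after correction for GC content and length. Median log2 ratios of the 3 were 0.13 in DSS against control and 0.47 in DSS+polydatin against DSS (-0.0057 and -0.012 over all genes). Of 12 other ligands of the superfamily, genes of GDF, nodal, activin and AMH type, 4 were measured. None was called in DSS against control, where 9.45% of all genes were higher and 5.81% lower. After that correction 1 was higher and 1 lower, beside 1130 and 850 of 14699 genes. AMH was the one called in DSS+polydatin against DSS, 1.82-fold higher (1.07 to 3.14), beside 5.39% of all genes higher and 2.60% lower. It was not called after the correction. GDF11 was the highest of these, at 32.9 CPM in DSS+polydatin, 35.1 in DSS and 31.4 in control, and GDF7 and GDF9 stayed under 4 CPM.

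SMADs and their regulators were all measured, and 1 of 14 was higher in DSS against control, 0 of 14 in DSS+polydatin against DSS and none lower in either, beside 9.45% and 5.39% of all genes higher. The median log2 ratios were 0.05 and -0.039, the second turning to 0.049 with total-count scaling. SMAD3 was at 117 CPM in DSS+polydatin, 92.7 in DSS and 82.2 in control, 1.42 times control in DSS+polydatin (1.33 to 1.52). PMEPA1, a negative regulator that is itself induced by TGF-beta, was the one higher, 1.63-fold in DSS over control (1.19 to 2.25). The corepressor gene TGIF1 and the ubiquitin ligase gene SMURF1 had DSS against control ratios of 1.26 (1.17 to 1.36) and 1.33 (1.17 to 1.51), short of the 1.5-fold rule.

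Known targets of TGF-beta and SMAD3 include genes already counted above. LTBP2, THBS1 and ITGB6 are also among the latency genes, and SMAD7, SKIL and PMEPA1 among the SMADs and regulators. The higher calls of ITGB6 and PMEPA1 thus enter both counts. Targets were split in direction in DSS against control, with 6 of 17 measured higher and 3 lower (9.45% and 5.81% of all genes). The median log2 ratio was 0.35 (-0.0057 over all genes), and 0.21 after correction for GC content and length. In DSS+polydatin against DSS 4 were higher and none lower (5.39% and 2.60% of all genes), with a median of 0.35 (-0.012 over all genes). CDKN2B had 214 counts in DSS+polydatin, 120 in DSS and 21 in control, 5.60-fold higher in DSS than in control (3.50 to 9.38) and 1.89-fold higher in DSS+polydatin than in DSS (1.51 to 2.39). BHLHE40, a transcriptional repressor gene, was 2.86-fold higher (2.34 to 3.53) and FN1, fibronectin, 2.29-fold higher in DSS than in control (2.22 to 2.36). The basement membrane collagen gene COL4A1 was lower, at 0.318 times control in DSS (0.245 to 0.408), with 4.59 CPM in DSS+polydatin, 4.53 in DSS and 14.3 in control.

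Of 5 genes that TGF-beta lowers in epithelial cells, 3 were lower and none higher in DSS against control (5.81% of all genes lower), with a median log2 ratio of -0.90. In DSS+polydatin against DSS 2 were lower and none higher (2.60% of all genes lower), with a median of -0.20. ID1, an inhibitor of differentiation that BMP signals raise, had 293 counts in DSS+polydatin, 714 in DSS and 1783 in control, and was at 0.392 times control in DSS (0.359 to 0.428) and 0.436 times DSS in DSS+polydatin (0.379 to 0.50). ID2 was at 0.536 times control in DSS (0.507 to 0.566). ID3 was at 0.396 times control in DSS (0.264 to 0.583), and its DSS+polydatin against DSS ratio of 1.15 had an interval that includes 1 (0.719 to 1.83). MYC was highest in DSS, with 120 CPM in DSS+polydatin, 217 in DSS and 163 in control.

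**Figure D4:**
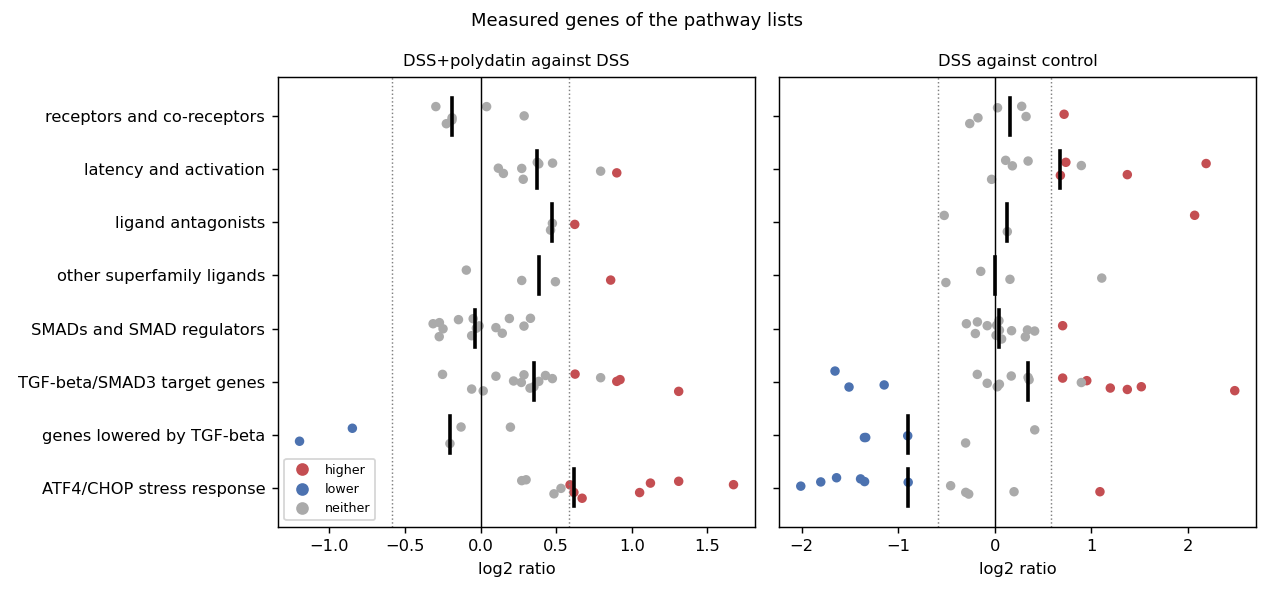
Log2 ratios of the measured genes of 8 pathway lists for DSS+polydatin against DSS and for DSS against control; each point is a gene, coloured where it was called higher or lower at 1.5-fold, black bars are list medians and dotted lines mark 1.5-fold. The horizontal scales differ. The stress response list has its median at 0.62 in the first panel and at -0.90 in the second.

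GDF15 and INHBE are both known to respond to ATF4 and CHOP, yet stood on opposite sides of control in DSS. On the ATF4 and CHOP list 6 of 11 measured genes were lower and 1, ATF3, was higher in DSS against control (5.81% and 9.45% of all genes), with a median log2 ratio of -0.90. In DSS+polydatin against DSS 7 of 11 were higher and none lower (5.39% and 2.60% of all genes), with a median of 0.62, and 4 were higher after correction for GC content and length. CHAC1 had 156 counts in DSS+polydatin, 52 in DSS and 205 in control, the same order of libraries as INHBE. The mTORC1 inhibitor gene DDIT4, with 573 counts in DSS+polydatin, 397 in DSS and 990 in control, had that order too. VLDLR had 280 counts in DSS+polydatin, 120 in DSS and 308 in control; it was lowest in DSS, and its DSS+polydatin against control ratio of 0.947 had an interval that includes 1 (0.802 to 1.12). PSAT1, of serine synthesis, was at 0.287 times control in DSS (0.269 to 0.306) and 0.346 times control in DSS+polydatin (0.326 to 0.368). In DSS against control 2 of the 11 ratios were above 1, those of ATF3 and TRIB3. ATF3, a stress transcription factor gene, had instead the order of GDF15, with 1110 counts in DSS+polydatin, 569 in DSS and 262 in control. TRIB3 had that order too, with 3029 counts in DSS+polydatin, 2021 in DSS and 1724 in control. It was at 1.15 times control in DSS (1.08 to 1.23). The part of ATF4 and CHOP in the values of GDF15 and INHBE was not tested.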

How the data were processed

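Raw whole-number counts by Ensembl identifier, as deposited by the authors, were available for 3 libraries, 1 per group. HISAT2 and GRCh38 are the aligner and build named in the submitters' processing notes; the counter, annotation and strandedness are not stated there. Counts were scaled with TMM factors (edgeR 4.0.16, R 4.3.3; 0.971 for control, 0.984 for DSS, 1.05 for DSS+polydatin). Ratios were computed for all 14792 measured genes with exact 95% Clopper-Pearson intervals (scipy 1.17.1), with 0.5 added to both counts where either was 0. Called means at least 1.5-fold with the interval excluding 1. With 1 library per group there is no test. The calculation was tested on simulated data. Coordinates and union exon lengths came from GENCODE 29. Members and the 9 lists were chosen with earlier results of these data known; 1 list and some genes are not reported here, and counts over all 9 lists include them. Named were all members and the 5 genes nearest to GDF15 and to INHBE. Up to 4 genes per list were named, those whose nearer interval bound lay farthest from 1 in either of the first comparisons. Other genes were named outside these rules. They include receptor, overlapping and related genes, cell type markers, and genes that name a count or belong to more than 1 list. MIR3189 was looked up after the values of GDF15 were seen. The 8 alternatives were size factors from DESeq2 1.42.0, scaling by total counts, a minimum of 10 CPM or none, 2 counts added, a 2-fold rule, random thinning to equal depth, and correction for a smooth trend on GC content and length (statsmodels 0.14.6). Promoter and microRNA sequences are from RefSeq. Figures were drawn with matplotlib 3.10.9. Cells given erastin or a ferroptosis inhibitor were not analysed here.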

Additional observations from a re-analysis of the deposited data

How the results depend on the processing

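No paired analysis was possible because each group has 1 library. Of 183 values of the measured members under the alternatives, 172 stayed within the main counting interval and 11 moved beyond it. The 2-fold rule and the minimum of 10 CPM or none leave every ratio as it was, so their values among the 172 could not move. None of the called ones changed direction. In all 8 calls changed, 5 of them through the 2-fold rule. With the 2-fold rule, members higher and lower were 1 and 1 in DSS against control and 1 and 0 in DSS+polydatin against DSS. In DSS+polydatin against control they were 3 and 1. Genes of all 9 lists, the unreported one included, were higher in 8, 7 and 14 cases in those comparisons and lower in 10, 1 and 6. All genes higher and lower were 627 and 261, 287 and 68, and 1262 and 483. With 10 CPM, members lower were 0 in both comparisons against control and 1 was higher in DSS+polydatin against DSS, where list genes higher were 10; all genes were 749 higher and 438 lower in DSS against control, 237 and 234 in DSS+polydatin against DSS, and 1269 and 1315 in DSS+polydatin against control, a split turned from 2367 and 1829, as it was after correction for GC content and length (1790 and 1930). These counts fall because fewer genes are tested or a larger fold is asked. With total-count scaling 4 members were higher and 234 genes lower in DSS+polydatin against DSS, and the median log2 ratio of all genes in DSS+polydatin against control was 0.091 in place of -0.020. After correction for GC content and length 10 list genes were higher in DSS+polydatin against DSS, against 16, and the cause was not tested. Depth limits FST and INHBA, at 1 to 5 counts.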
